A study of Mus musculus with 12 samples.

Results

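Nuclear genes named for subunits of the 5 respiratory complexes were followed in leukemic blasts with and without STAT3β. They were chosen by gene symbol: Nduf genes of the a, b, c, s and v series for complex I, Sdha to Sdhd for complex II, Uqcr genes for complex III, Cox4 to Cox8 genes for complex IV and Atp5 genes for complex V. Of 24454 genes in the table, 84 had such a symbol, and 75 of these had a mean of at least 10 normalized counts over the 12 libraries. The 75 genes comprised 35 of 37 for complex I, all 4 for complex II, all 8 for complex III, 13 of 18 for complex IV and 15 of 17 for complex V. The 9 genes under this limit were Ndufs5, Ndufa4l2, Cox4i2, Cox6a2, Cox7b2, Cox8b, Cox8c, Atp5g2 and Atp5l. A symbol does not make each gene a subunit of its complex. Atp5s and Atp5sl, the latter annotated as Dmac2, were counted with complex V by symbol but treated as factors outside the enzyme.

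Fetal liver cells of wildtype (WT) or STAT3β-deficient (Δβ) mice had been transformed with a retrovirus carrying the leukemia fusion gene MLL-AF9 and a Venus reporter, and were grown in male immunocompromised NSG mice transplanted at 6 to 8 weeks of age. Venus-positive blasts were sorted from the spleen (SP) and bone marrow (BM) of animals with disease, and their poly-A RNA was sequenced. All 4 groups, WT SP, Δβ SP, WT BM and Δβ BM, thus carried MLL-AF9 and Venus, differed in genotype or organ, and had 3 replicates each. No source used here says that replicates are separate animals, so p-values measure the spread between these libraries only.

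The respiratory chain sits in the inner mitochondrial membrane. Complexes I and II pass electrons from NADH and succinate to ubiquinone, complex III passes them on to cytochrome c, and complex IV reduces oxygen. Complexes I, III and IV pump protons, and complex V, the ATP synthase, uses the proton gradient to make ATP. The chain is of interest in acute myeloid leukemia because leukemic stem cells are known to depend on oxidative phosphorylation. Subunits of complexes I, III, IV and V that mitochondrial DNA encodes were not analysed here.

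Several of these genes have processed copies elsewhere in the mouse genome, and the sequences show why their counts need care. The 84 genes were compared with all other annotated transcripts in windows of 50 bases (GENCODE M21, GRCm38). One window that each gene shares unchanged with at least 1 pseudogene is given for Ndufs5, a complex I subunit, Cox7c, a small complex IV subunit, and Atp5l, the g subunit of complex V.
Ndufs5, shared with BC002163: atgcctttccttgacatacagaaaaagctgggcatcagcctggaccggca
Cox7c, shared with Gm10012 and Gm12338: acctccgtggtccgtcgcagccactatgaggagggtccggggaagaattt
Atp5l, shared with 9 pseudogenes: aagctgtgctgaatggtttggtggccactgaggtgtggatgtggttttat

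Ndufs5 was listed at 0 in all 12 libraries, Atp5l had a mean of 4.03 normalized counts and Cox7c one of 11.9. The 12 genes with over 50% of their coding windows shared with another gene had a median of 108 normalized counts, and 3 of them fell under the limit. The 72 genes at or under 50% had a median of 878, and 6 of them fell under the limit, none of which shared a coding window. Whether reads that map to several places were dropped is not given in the sources used here, and the part of shared sequence in these levels was not tested. Levels of Ndufb4, Ndufa12, Uqcrb, Atp5h, Cox5b, Cox7a2l and Cox6c, which also exceed 50%, are uncertain for the same reason.

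**Figure D1:**
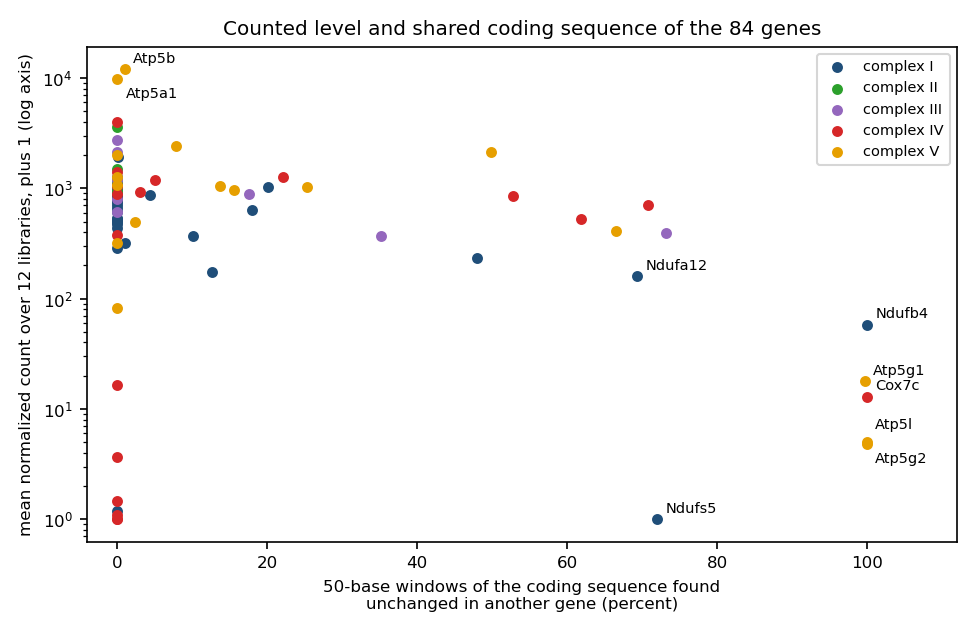
Mean normalized count over the 12 libraries plus 1 (log axis) against the percentage of 50-base coding windows that each of the 84 genes shares unchanged with another gene, coloured by complex. The genes at or near 100%, Ndufb4, Atp5g1, Cox7c, Atp5l and Atp5g2, lie at a mean of 57.1 normalized counts or less.

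The c subunit, which forms the rotor ring of the ATP synthase, is made from 3 genes that encode the same mature protein. The last 90 coding bases of each are shown because they tell the genes apart, with capitals for bases that differ from Atp5g3.
Atp5g1: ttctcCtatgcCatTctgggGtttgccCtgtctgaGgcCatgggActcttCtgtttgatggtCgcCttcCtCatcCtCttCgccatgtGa
Atp5g2: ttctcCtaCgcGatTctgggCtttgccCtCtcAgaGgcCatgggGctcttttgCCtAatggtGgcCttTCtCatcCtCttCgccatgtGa
Atp5g3: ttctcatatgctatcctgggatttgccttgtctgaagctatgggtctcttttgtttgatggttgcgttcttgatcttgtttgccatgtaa

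Atp5g1 differed from Atp5g3 at 17 of these bases, 13 of them at the last position of a codon, and Atp5g2 at 23, 18 of them there. Atp5g3, which shared no coding window, had 1797 to 2204 normalized counts over the 12 libraries. Atp5g1 had 11.9 to 26.9, and Atp5g2 had a mean of 3.78. Both of the low genes match pseudogenes along nearly all of their coding sequence, at 99.7% of the windows for Atp5g1 and 100% for Atp5g2, so their levels cannot be set against that of Atp5g3.

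Depth was 9001051 to 13859727 reads on genes per library, and the 75 genes took 0.687% to 0.947% of them. Stat3 had 2674 to 4430 normalized counts in the 6 SP libraries and 2349 to 3228 in the 6 BM libraries, and a count per gene cannot separate its isoforms. All 9 markers of blasts and myeloid progenitors were detected, while 6 hemoglobin genes were listed at 0 throughout. The sum of 6 neutrophil markers was 135430 to 314233 normalized counts in WT SP, where Δβ SP had 87410 to 109977. In BM this sum was 135664 to 386797 for WT and 106595 to 223054 for Δβ. Of these markers only S100a8 and S100a9 separated the SP groups. S100a8 had 40977, 70767 and 35913 in WT SP beside 23059, 19009 and 21251 in Δβ SP. S100a9 had 59678, 105463 and 39549 beside 30700, 27531 and 31489. Ltf, Camp, Ngp and Mmp8 overlapped in SP. T cell markers summed to 288 in Δβ BM replicate 1 and to at most 66.7 in any other library. The markers of blasts and myeloid progenitors summed to 39192 to 45553 in WT BM, below the 53582 to 79459 of Δβ BM. Only Mpo of this list, a granule enzyme of immature myeloid cells, separated these groups, at 14555, 8288 and 5172 beside 41895, 27630 and 24214. The 6 macrophage markers summed to 5112 to 7994 in WT BM, above the 3712 to 4755 of Δβ BM. Of these only Vcam1 separated the groups, at 4730, 5511 and 2910 beside 1684, 2131 and 1244. Markers of stroma and endothelium summed to 1055 to 1201 in WT SP, below the 1404 to 2524 of Δβ SP. Pecam1 made up nearly all of this sum, at 1184, 1046 and 1051 in WT SP and 2517, 1548 and 1404 in Δβ SP. Cdh5, Cxcl12, Col1a1, Col3a1 and Lepr each had at most 7.98 normalized counts in any SP library. The ribosomal RNA gene Rn45s took 0.725%, 2.48% and 2.41% of the reads in WT SP, above the 0.224% to 0.43% of Δβ SP, and the 20 most abundant genes took 7.24% to 9.90%, above 5.31% to 6.14%. The WT SP libraries differed among themselves. Replicates 1 and 3 correlated at 0.90 over all genes, replicates 2 and 3 at 0.94 and replicates 1 and 2 at 0.96. Pairs of libraries in the other groups reached 0.93 to 0.97. Replicate 3 had 40587 normalized counts of Mpo, where replicates 1 and 2 had 5947 and 5256. Replicates 1 and 2 in turn lay above all other libraries for Ptprc (20833 and 14695), Spi1 (9726 and 7918) and Itgam (26293 and 21981). The part of these differences in the results was not tested, beyond the values given without WT SP replicate 3.

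Transcript levels can be compared between genes per kb of transcript. On this scale the catalytic β subunit of the ATP synthase, Atp5b, was highest with 6236 normalized counts per kb, followed by Cox4i1, the regulatory subunit of complex IV, with 5328 and the α subunit Atp5a1 with 3934. Atp5b had 10119, 10878 and 13423 normalized counts in WT SP, 11508, 13887 and 12442 in Δβ SP, 11215, 12008 and 11556 in WT BM, and 10193, 12903 and 13249 in Δβ BM. The groups overlapped in each comparison, as they did for Atp5a1, which stayed between 8674 and 10761 over the 12 libraries. The median over genes was 827 normalized counts per kb for complex I, 1022 for complex II, 995 for complex III, 1585 for complex IV and 1302 for complex V. Within complex I the highest was Ndufa4 with 1743, a gene that carries a complex I name although its protein is now counted as a subunit of complex IV. In complex II, Sdha, the flavoprotein that oxidizes succinate, had 1229 and the membrane anchor Sdhc 369. Uqcrc1, a core protein of complex III, led that complex with 1668.

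Complex IV has isoforms that differ between tissues, and the blasts held 1 of each pair at a far higher level. Cox4i1 stood at 5328 normalized counts per kb and Cox4i2, known from lung, at 3.62. Cox6a1 stood at 2209 and the muscle and heart form Cox6a2 at 0.67. Cox7a2 stood at 1585 and the muscle form Cox7a1 at 39.0, and Cox8a at 1599 while Cox8b, another muscle form, stood at 0.25. Cox7b2 and Cox8c were listed at 0 in all libraries, whereas Cox7b stood at 918. Cox6b departed from this pattern, since Cox6b2, known as the form of testis, stood at 683 beside 2254 for Cox6b1. Neither Cox6b gene shared a coding window with another gene.

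**Figure D2:**
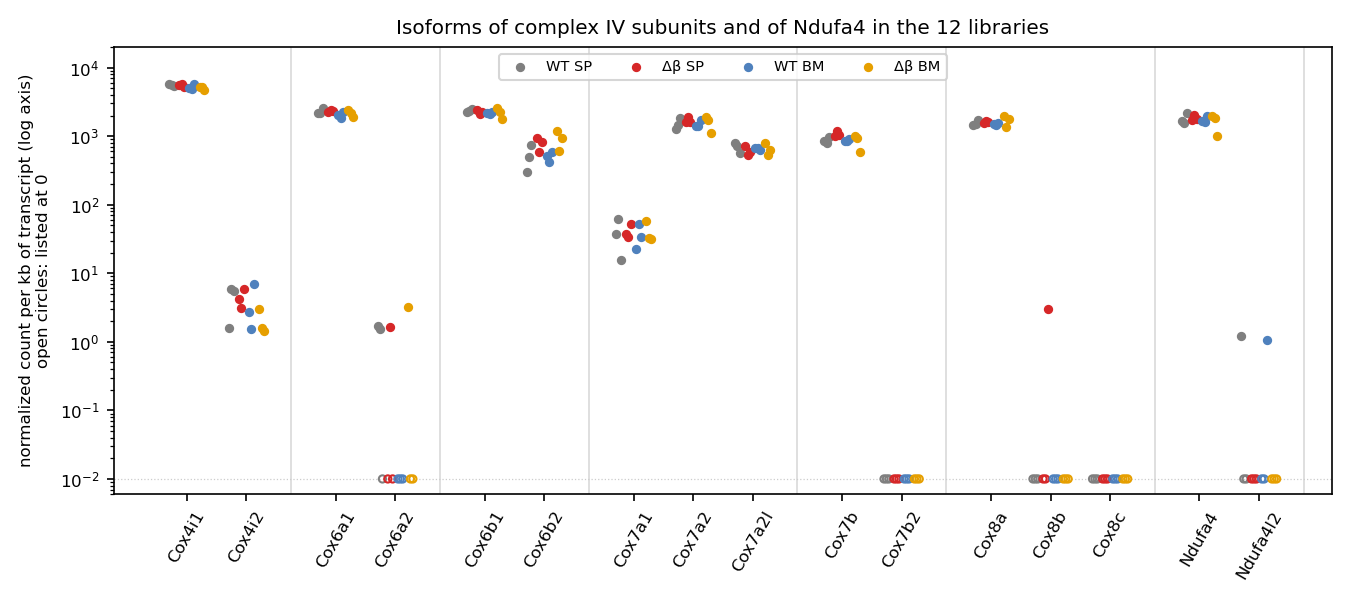
Normalized count per kb of transcript (log axis) in each of the 12 libraries for isoforms of complex IV subunits and for Ndufa4 and Ndufa4l2, with open circles for libraries in which a gene is listed at 0. Cox6b2 lies less than 1 order of magnitude below Cox6b1 in each library, while Cox4i2, Cox6a2, Cox7b2, Cox8b and Cox8c lie near or at 0.

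The first question was whether respiratory genes differ between Δβ and WT blasts of the SP. None of the 75 passed an adjusted p of 0.05 (limma with Benjamini-Hochberg adjustment), where 12 of all 11476 genes tested passed, or 0.105%. At an unadjusted p under 0.05 there were 3, namely Atp5e, Ndufa5 and Ndufb10, beside 14.9% of all genes. On whole reads edgeR and DESeq2 also called 0 members, where they called 0.0349% and 3.99% of all genes, with 2 members each at an unadjusted p under 0.05. Differences were small and mostly in 1 direction: 54 of 75 members were higher in Δβ SP, or 72.0% beside 48.1% of all genes, with a median log2 fold change of 0.08 beside -0.01. In bulk samples, fewer cells of a type and less RNA per cell cannot be told apart.

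By complex, the median log2 fold change in SP was 0.09 for complex I, with 27 of 35 genes higher, and 0.12 for complex V, with 11 of 15 higher. It was 0.03 for complex II, 0.04 for complex III and 0.06 for complex IV, with 3 of 4, 4 of 8 and 9 of 13 genes higher. The 95% interval stayed within 1.5-fold in either direction for 61 of 75 members, or 81.3%, where it did so for 34.8% of all genes. All genes include less abundant ones with wider spread. The median SD within groups was 0.27 over all genes and 0.21 for genes at least as abundant as the median member. No share was taken over genes of matched abundance. A difference of 2-fold lay outside the interval of 69 members.

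Levels of the complexes also varied between libraries of 1 group. The level of a complex was taken as the mean, over its genes, of the log2 value minus that gene's mean over the 12 libraries. For complex I this level was -0.05, -0.11 and 0.14 in the WT SP replicates and 0.03, 0.18 and 0.07 in those of Δβ SP. WT SP replicate 3 lay among the Δβ libraries there, and complexes II, III and V had the same order of replicates within WT SP. Complex IV did not, at -0.027, -0.0018 and -0.014. Of the 75 genes, 56 were highest in replicate 3 among the WT SP libraries, or 74.7%, while this library held the highest value of 40.3% of all genes. Complex V stood at -0.10, -0.12 and 0.11 in WT SP and at 0.07, 0.20 and 0.05 in Δβ SP. The groups did not overlap for complex IV in SP, with a mean of -0.01 ± 0.01 (SD, n = 3) in WT and 0.07 ± 0.05 (n = 3) in Δβ, nor for complex II in BM, with -0.07 ± 0.03 and 0.04 ± 0.04. Without isoforms and factors outside the enzyme (Cox7a1, Cox6b2 and Cox7a2l), complex IV overlapped in SP, at 0.038, -0.053 and 0.091 in WT and 0.014, 0.20 and -0.054 in Δβ. Without Atp5s and Atp5sl, complex V stood at -0.095, -0.091 and 0.095 in WT SP and at 0.064, 0.22 and 0.045 in Δβ SP.

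**Figure D3:**
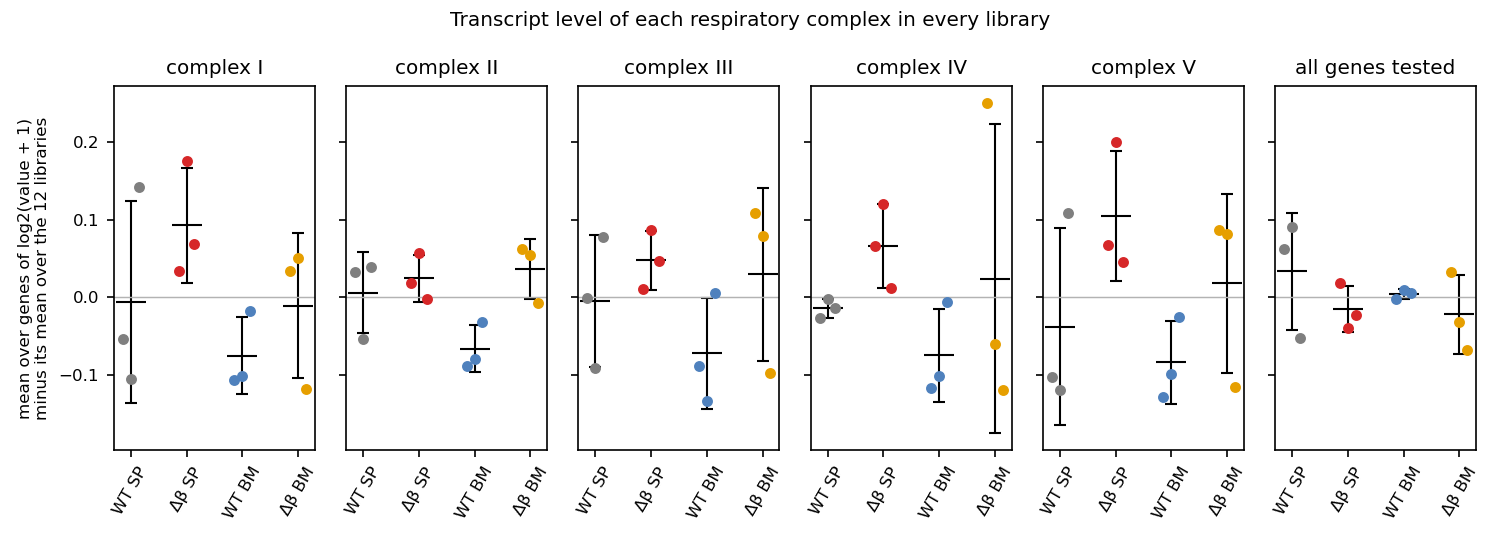
Level of each complex, and of all genes tested, in every library, as the mean over genes of log2(value + 1) minus the gene's mean over the 12 libraries; points are replicates 1 to 3 from left to right, and bars are the group mean and SD. The Δβ and WT libraries of an organ overlap for complexes I, II, III and V in SP and for complexes I, III, IV and V in BM.

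Without WT SP replicate 3 more genes were called in SP. Of all genes, 16.4% then passed the threshold, while 2 of the 75 members did, or 2.67%. These were Ndufa5, a complex I subunit (log2 fold change 0.61, SE 0.16, adjusted p = 0.0326 from limma), and Atp5s, known as coupling factor B (0.74, SE 0.22, adjusted p = 0.0456 from limma), both named after their values were seen. The members' median went from 0.08 to 0.15, with 61 of 75 higher, while the median of all genes was -0.02, with 48.2% higher. Ndufa5 had 234, 206 and 328 normalized counts in WT SP and 300, 389 and 321 in Δβ SP, so the omitted replicate alone made the groups overlap. Atp5s had 46.7, 59.4 and 92.3 in WT SP and 77.5, 91.9 and 97.2 in Δβ SP, again with WT replicate 3 inside the Δβ range.

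Taken singly, the SP groups did not overlap for 8 members, or 10.7%, beside 17.3% of all genes; 7 were higher in Δβ, as were 7.92% of all genes, and 1, Ndufa11, was lower, as were 9.37%. The largest was Atp5e, the ε subunit of the ATP synthase. Its normalized counts were 1242, 1056 and 982 in WT SP and 1540, 1726 and 1577 in Δβ SP, for a log2 fold change of 0.57 (SE 0.24, adjusted p = 0.311 from limma). All Δβ SP libraries thus lay above all WT SP libraries, but the difference did not pass the threshold. In BM it had 706, 1240 and 1009 in WT and 1663, 1501 and 925 in Δβ, where replicate 3 of Δβ fell inside the WT range (0.46, SE 0.24). The gene (chromosome 2, minus strand, 174461072 to 174464105) shares no coding window.

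Ndufb4, a membrane arm subunit of complex I, had 58.1, 54.1 and 50.7 normalized counts in WT SP and 72.1, 69.4 and 70.5 in Δβ SP (log2 fold change 0.38, SE 0.25, adjusted p = 0.468 from limma). All of its coding windows are shared, so this level is uncertain. Cox7b, a small structural subunit of complex IV on the X chromosome (106015700 to 106022450), had 840, 809 and 985 in WT SP and 1002, 1199 and 1032 in Δβ SP (0.30, SE 0.18, adjusted p = 0.436 from limma). Ndufb10, another membrane arm subunit of complex I, had 1028, 959 and 1180 in WT SP and 1183, 1397 and 1229 in Δβ SP (0.27, SE 0.12, adjusted p = 0.334 from limma), with the highest WT and the lowest Δβ library almost equal. Cox7b did not overlap in SP but did in BM, where Δβ had 1005, 946 and 589 beside 856, 858 and 899 in WT.

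In BM the same question gave 0 called members, where 8 of all genes, or 0.0697%, passed. At an unadjusted p under 0.05 there was 1, Cox6b2, beside 2.59% of all genes. edgeR and DESeq2, which called 0.0697% and 0.323% of all genes, called 0 members, with 1 and 2 at an unadjusted p under 0.05. Again 59 of 75 members were higher in Δβ, or 78.7% beside 45.3% of all genes, with a median log2 fold change of 0.08 beside -0.02. The medians were 0.07 for complex I, 0.11 for complex II, 0.10 for complex III, 0.04 for complex IV and 0.10 for complex V, with 28 of 35, 3 of 4, 7 of 8, 9 of 13 and 12 of 15 genes higher. The interval stayed within 1.5-fold for 65 of 75 members, or 86.7%, beside 47.3% of all genes, again without matching for abundance.

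The BM groups did not overlap for 10 members, or 13.3%, beside 7.63% of all genes, and all 10 were higher in Δβ, a direction that 3.5% of all genes took. They were Ndufa9, Ndufb8, Ndufs1 and Ndufs7 of complex I, Sdhc and Sdhd of complex II, Uqcrb and Uqcrc2 of complex III, Cox6b2 and Atp5d. The largest was Cox6b2 (chromosome 7, minus strand, 4751792 to 4753094). Its normalized counts were 283, 233 and 327 in WT BM and 661, 340 and 521 in Δβ BM (log2 fold change 0.81, SE 0.33, adjusted p = 1.0 from limma). In SP it had 169, 276 and 417 in WT and 521, 329 and 457 in Δβ (0.67, SE 0.33, adjusted p = 0.368 from limma), where WT replicate 3 lay within the Δβ range. Cox6b1, its partner, had 1284 to 1375 in WT BM, inside the 1102 to 1607 of Δβ BM, with a log2 fold change of 0.01.

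Both anchors of complex II were higher without overlap in BM. Sdhc, on chromosome 1 from 171127165 to 171150603, had 1093, 1090 and 1095 normalized counts in WT BM and 1311, 1215 and 1240 in Δβ BM (log2 fold change 0.20, SE 0.09, adjusted p = 1.0 from limma). The 3 WT BM libraries differed by less than 1 SD of any other group. In SP it overlapped, at 1119, 1078 and 1259 in WT and 1123, 1214 and 1220 in Δβ. The other anchor, Sdhd, had 1414, 1483 and 1477 in WT BM and 1656, 1641 and 1546 in Δβ BM (0.15). The catalytic Sdha had 3716, 3671 and 3400 in WT BM and 3104, 3738 and 3902 in Δβ BM, with a log2 fold change of -0.01, so the subunits of complex II did not share 1 value. The iron-sulfur subunit Sdhb had a log2 fold change of -0.12 in SP and 0.08 in BM.

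Uqcrb, the ubiquinone-binding subunit of complex III, had 362, 331 and 360 normalized counts in WT BM and 453, 444 and 403 in Δβ BM (log2 fold change 0.30, SE 0.14, adjusted p = 1.0 from limma). In SP it overlapped (0.25, SE 0.14). Of its coding windows 73.2% are shared with other genes. Atp5d, the δ subunit of the ATP synthase, had 976, 880 and 1008 in WT BM and 1064, 1103 and 1050 in Δβ BM (0.17, SE 0.10), and a log2 fold change of -0.01 in SP. On the opposite strand Atp5d is overlapped by Cbarp, Uqcrb by Gm10767 and Cox4i1 by Emc8, and since the sources used here do not say whether strand was counted, their reads cannot be told apart.

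Ndufb8, a membrane arm subunit of complex I, was the 1 member without overlap in the same direction in both organs, which 1.77% of all genes reached. Its normalized counts were 937, 875 and 1005 in WT SP and 1097, 1043 and 1085 in Δβ SP (log2 fold change 0.20, SE 0.10, adjusted p = 0.384 from limma). In BM it had 889, 801 and 892 in WT and 1005, 1103 and 900 in Δβ (0.22, SE 0.10, adjusted p = 1.0 from limma). Ndufb8 lies on chromosome 19 from 44548572 to 44555440, where the gene model Gm20538 overlaps it on the same strand.

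**Figure D4:**
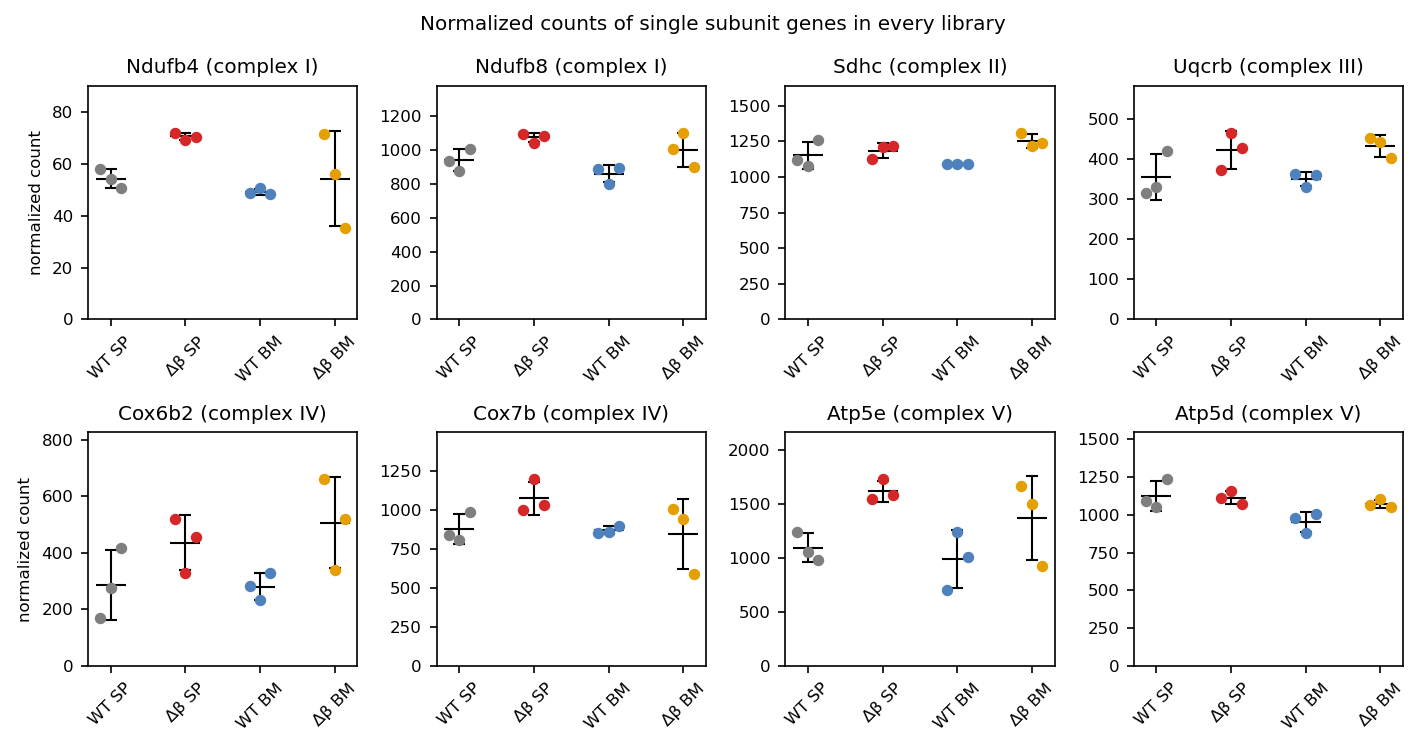
Normalized counts of 8 members in every library; points are replicates 1 to 3 from left to right, and bars are the group mean and SD. The Δβ SP libraries of Atp5e, at 1540 to 1726, lie above all WT SP libraries, while Δβ BM replicate 3 lies lowest of its group for Ndufb4, Ndufb8, Uqcrb, Cox7b, Atp5e and Atp5d.

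Core subunits were also read singly. Ndufs1, which carries iron-sulfur clusters, had 1076 to 1200 normalized counts in WT SP and 1153 to 1176 in Δβ SP. Ndufv1, which binds NADH, had 953 to 1188 and 1137 to 1194. Uqcrfs1, the Rieske iron-sulfur protein of complex III, had 1131 to 1384 in WT SP and 1103 to 1180 in Δβ SP. Cox4i1 had a log2 fold change of -0.03 in both organs (SE 0.10).

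Spread within Δβ BM was wide. Replicate 1 was the highest of its group for 39 of 75 members, or 52% beside 41.1% of all genes, and replicate 3 the lowest for 47 of 75, beside 35.2% of all genes. Ndufs4, an accessory subunit of complex I, had 686, 535 and 339 normalized counts in Δβ BM beside 493 to 510 in WT BM. Ndufa4 had 1192, 1130 and 609, and Cox7a2 had 1249, 1142 and 728. Across the 75 members, the deviation from the gene's mean had a Spearman correlation with transcript length of -0.36 in Δβ BM replicate 1 and 0.31 in replicate 3, and of -0.27 to 0.27 in the other libraries, a description across genes of 1 library each. The part of this in the BM comparison was not tested. Within groups the members varied less than other genes, with a median SD of 0.15 on the log2 scale beside 0.21 for genes at least as abundant as the median member.

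The difference between the genotype effects in SP and BM was tested as an interaction. No member passed, and none of all genes did (0%), with 0 members at an unadjusted p under 0.05 in limma, beside 3.2% of all genes. DESeq2 called 0.0262% of all genes and no member. The member differences ranged from -0.33 to 0.38, with a median of -0.02, and 34 of 75 were above 0, or 45.3% beside 50% of all genes. Complex II had the lowest median, -0.14 over 4 genes.

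The second question was whether the organ mattered. Between SP and BM no member passed in WT or in Δβ blasts, where 0% of all genes passed in either, and DESeq2, which called 0.969% of all genes in WT and 0.0175% in Δβ, called no member. At an unadjusted p under 0.05 there was 1 member in WT, Atp5d, and 0 in Δβ, beside 8.27% and 1.77% of all genes. In WT 56 of 75 members were higher in SP, or 74.7% beside 50% of all genes, with a median of 0.06. As a share of all reads this WT median was -0.079, so its direction turned with the scale. In Δβ 55 were, or 73.3% beside 50.4%, with a median of 0.06. By complex the WT medians were 0.06, 0.04, 0.06, 0.05 and 0.06 for complexes I to V, and the Δβ medians were 0.10, -0.01, -0.04, 0.05 and 0.06.

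In WT the organs did not overlap for 6 of 75 members, beside 11.5% of all genes, and all 6 were higher in SP, a direction that 5.66% of all genes took. Atp5d was higher in SP, with 1091, 1050 and 1236 normalized counts beside 976, 880 and 1008 in BM (log2 fold change 0.24, SE 0.10, adjusted p = 0.599 from limma). Ndufa11, a membrane subunit of complex I, was higher in WT SP with 394, 374 and 417 beside 330, 305 and 368 (0.24, SE 0.13, adjusted p = 0.646 from limma). In Δβ 2 members did not overlap, or 2.67% beside 7.42% of all genes, 1 in each direction where 2.92% were higher and 4.51% lower. Ndufv3, a small subunit near the NADH site, was lower in SP with 618, 728 and 728 beside 759, 735 and 983 (-0.25, SE 0.16). The organ and genotype comparisons share libraries.

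**Figure D5:**
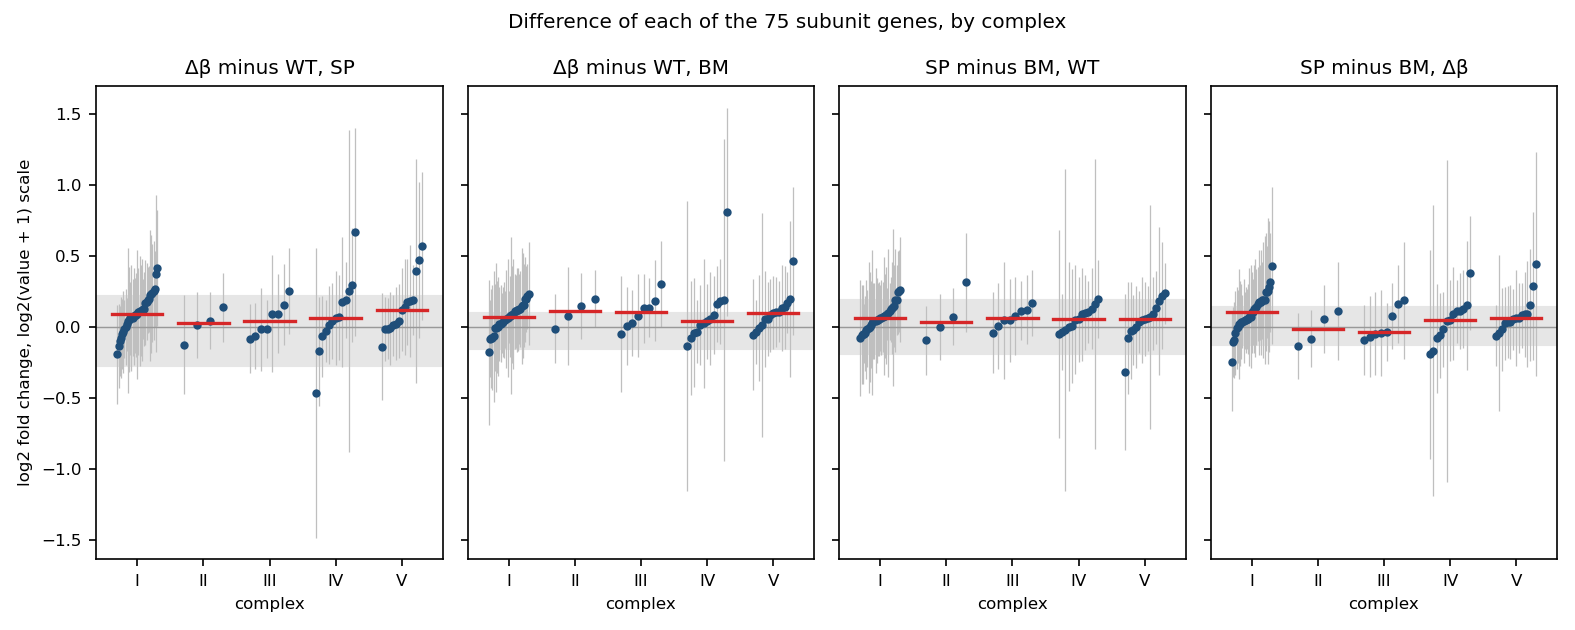
Log2 fold change of each of the 75 genes (points, with 95% intervals as grey lines) by complex in the 4 comparisons, with the median of each complex in red and the middle 50% of all genes tested as a grey band. The medians of the complexes lie between -0.04 and 0.12, and those of complexes II, III and V lie at or just above the band's upper edge of 0.10 in the BM genotype comparison.

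The scale mattered for the size of the SP difference. As a share of all reads, the 75 genes took 0.693%, 0.687% and 0.888% in WT SP and 0.845%, 0.947% and 0.902% in Δβ SP, and 0.789%, 0.805% and 0.783% in WT BM and 0.836%, 0.886% and 0.838% in Δβ BM. The BM groups did not overlap on this scale. On the scale of shares the median of all genes itself moved by 0.17 (log2) between Δβ and WT SP and by -0.14 between WT SP and WT BM. Relative to that shift the members' median was 0.10 in the SP genotype comparison, 0.10 in BM, 0.06 between organs in WT and 0.06 in Δβ.

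Related genes were read from lists of the same pathway. Of all genes tested, 48.1% were higher in Δβ SP and 45.3% in Δβ BM, and 0.105% and 0.0697% were called. Of 47 assembly factors tested, 41 were higher in Δβ SP and 32 in Δβ BM, with medians of 0.20 and 0.07 and 0 called in either direction. The largest in SP was Sdhaf3, an assembly factor of complex II, with 42.2, 31.8 and 69.01 normalized counts in WT and 61.2, 77.3 and 69.4 in Δβ (log2 fold change 0.60, SE 0.27, adjusted p = 0.337 from limma). Of 16 regulators of mitochondrial biogenesis, 10 were higher in SP and 7 in BM, with medians of 0.07 and -0.01 and 0 called. Tfb1m, a mitochondrial ribosomal RNA methyltransferase, was the largest in SP, with 90.03, 108 and 193 in WT and 205, 206 and 184 in Δβ (0.68, SE 0.25, adjusted p = 0.278 from limma). WT replicate 3 thus lay above the lowest Δβ value of Tfb1m. Pprc1, the largest of this list in the interaction, did not overlap in SP. It had 471, 451 and 509 in WT SP and 741, 782 and 686 in Δβ SP (0.62, SE 0.15, adjusted p = 0.169 from limma). In BM its log2 fold change was 0.06. Of 17 enzymes of the tricarboxylic acid cycle, 9 and 12 were higher, with medians of 0.01 and 0.06, and of 12 further carriers and subunits 6 and 7 were, with medians of 0.02 and 0.05 and 0 called. The inhibitor of the ATP synthase, Atpif1, had 793, 714 and 1044 in WT SP and 1044, 1268 and 1141 in Δβ SP (0.45, SE 0.17, adjusted p = 0.278 from limma), where WT replicate 3 reached the lowest Δβ value, and a log2 fold change of 0.00 in BM.

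Promoters of the members were searched for the letters of 3 factors long linked to respiratory genes, on both strands from 250 bases before to 50 after the start (RefSeq, GRCm38). Of the 75 members, 64 were matched. The NRF1 letters, GCGCA followed directly by TGCGC, were in 6.25% of them and in 2.50% of the promoters of all genes tested, the ETS letters CCGGAAG in 23.4% and 21.5%, and the YY1 letters AAGATGGC in 17.2% and 5.68%. At least 1 of the 3 was in 42.2% of the members and 27.6% of all genes tested. The promoters of Atp5e, with ETS letters on the opposite strand, and of Ndufb8, with YY1 letters, are shown with the letters in capitals, because Atp5e had the largest non-overlapping difference in SP and Ndufb8 was the 1 member without overlap in both organs.
Atp5e, minus strand, chr2:174464052-174464351: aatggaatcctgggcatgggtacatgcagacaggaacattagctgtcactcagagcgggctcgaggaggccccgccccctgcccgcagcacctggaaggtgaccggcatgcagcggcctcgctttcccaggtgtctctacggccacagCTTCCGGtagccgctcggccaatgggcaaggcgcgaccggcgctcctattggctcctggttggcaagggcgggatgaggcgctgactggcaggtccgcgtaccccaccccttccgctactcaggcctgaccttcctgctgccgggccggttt
Ndufb8, minus strand, chr19:44555393-44555692: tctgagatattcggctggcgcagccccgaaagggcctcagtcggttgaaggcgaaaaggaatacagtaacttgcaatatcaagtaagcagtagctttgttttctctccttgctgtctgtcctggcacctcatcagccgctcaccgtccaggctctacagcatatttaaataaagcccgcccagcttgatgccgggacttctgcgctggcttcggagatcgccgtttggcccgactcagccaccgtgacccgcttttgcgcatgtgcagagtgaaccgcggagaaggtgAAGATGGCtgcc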

How the data were processed

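The authors sequenced poly-A RNA of Venus-sorted blasts from 4 groups of 3 replicates. Per the labels, FastQC, STAR, featureCounts and DESeq2 were used with GRCm38 or mm10. Their versions, the read length and the handling of multi-mapping reads or strand are not given in the sources used here. The deposited values (signal) are counts of reads on a gene, scaled by a factor of each library: 100% were whole multiples of 1 read within 0.01. A further 6 columns without matching labels were not used.

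Testing covered 11476 genes with a mean of 10 or more and was done with limma 3.58.1 in R 4.3.3 (eBayes with trend) on log2(value + 1), with 1 mean per group. Fold changes on this scale understate low genes. Benjamini-Hochberg adjustment ran over all genes of a contrast at a threshold of 0.05. edgeR 4.0.16 and DESeq2 1.42.0 ran on recovered reads as alternatives, and the procedure was tested on simulated data. Depth was 9001051 to 13859727 reads, and all intervals cover these libraries only.

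Members and lists were chosen with earlier results of these data known. Named genes were members without overlap and of the largest change in each complex, isoform pairs, catalytic subunits and the 3 most abundant genes of each complex. Others were named after their values were seen, and 1 named gene is not reported here. Same-numbered SP and BM libraries deviated together in Δβ, with correlations of 0.66, 0.61 and 0.63 over genes, but not in WT (-0.01, -0.04 and -0.24), and numbers did not pair genotypes. Lengths and positions are from GENCODE M21 and promoters from RefSeq.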

Additional observations from a re-analysis of the deposited data

How the results depend on the processing

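Over 24 other settings no called difference appeared among the members, except without WT SP replicate 3. Leaving out 1 library in turn, the SP genotype comparison called 0 to 2 members, and 3 (Cox7b, Ndufa5 and Ndufb3) without both WT SP replicate 3 and Δβ BM replicate 3, a setting chosen after seeing the data. With a replicate block each of the 5 comparisons called 0 members. The block cannot change fold changes or their medians, because each group holds 1 library of each replicate number. The SP medians of complexes I to V, at 0.09, 0.03, 0.04, 0.06 and 0.12, were thus the same by design. The block changed no call, including between SP and BM of Δβ blasts. No named gene reversed.

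Medians of complexes moved by more than the spread in 27 of 595 cases, a total that includes the replicate block, where they could not move. Quantile normalization gave SP genotype medians of 0.13 for complexes II and III and 0.15 for IV, interaction medians of -0.064 for II and 0.14 for V, and WT organ medians of -0.035 for II and -0.0028 for IV. Without WT SP replicate 3 and Δβ BM replicate 3, complex II stood at 0.10 for the SP and 0.19 for the BM genotype, -0.088 for the interaction and -0.039 for the WT organ comparison, and complex IV at 0.11 for the SP genotype. Leaving out 1 library in turn, the SP genotype medians ranged from -0.023 to 0.10 for II and -0.012 to 0.11 for IV, the BM median of II from 0.078 to 0.19, the interaction from -0.034 to 0.11 for I, -0.20 to -0.069 for II, -0.12 to 0.018 for III and -0.10 to 0.043 for IV, and the WT organ medians from -0.039 to 0.088 for II and 0.043 to 0.10 for IV. As shares of all reads, complexes I to V differed by 0.27, 0.25, 0.19, 0.23 and 0.28 (log2) between Δβ and WT SP, and by -0.068, -0.13, -0.031, -0.048 and -0.10 between WT SP and WT BM. Without isoforms and factors outside the enzyme, the level of complex IV differed by 0.029 in SP and its groups overlapped. The cause of these moves was not tested.

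With 3 libraries a group the median 95% interval of a member reached 0.29 to either side of its log2 fold change, which limits the precision of each value.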
